A study of Mus musculus with 18 samples.

Results

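Growth-regulated mRNAs that do not encode ribosomal proteins, 8 in number, were followed through a metabolic labelling time course: Tpt1, Npm1, Nap1l1, Naca, Btf3, Pfdn5, Gnb2l1 and Ybx1. They were taken by name as known or proposed members of the terminal oligopyrimidine (TOP) class, and the 8 were listed in all 18 libraries, among 14002 genes listed in any library. The cells were RAW264.7, a mouse macrophage-like line, given 200 µM 4-thiouridine (4sU), a nucleoside that cells build into the RNA they make and that is read as C in place of T after chemical conversion. Each lysate gave 1 library of fragmented cytoplasmic RNA (input) and 1 of ribosome-protected fragments (footprints). In experiment 1 the 6 labelling times were 0, 20, 40, 60, 90 and 120 min with a lysate each. Experiment 2 covered 20, 30 and 40 min, also with a lysate each. The unlabelled lysate was thus a single one, of experiment 1, and every lysate came from the same line with cycloheximide in the wash and lysis buffers. The labels do not say whether the lysates are separate cultures, so the spread behind each p-value is that between these samples only.

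TOP mRNAs begin with a C followed by a run of pyrimidines. The run is known to couple their translation to growth signals: when the kinase mTOR is inactive, the RNA-binding protein LARP1 holds these mRNAs off ribosomes, and when it is active they are translated. The class holds nearly all ribosomal protein mRNAs, several translation factors, and the mRNAs described here, whose products work around the nascent chain, the ribosome, chromatin and the mRNA itself.

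The annotated 5′ ends of the members were read first, because the class is defined there. In the GENCODE M21 annotation of GRCm38 (mm10), the first 60 bases of each coding transcript were searched on the transcribed strand for a C followed by at least 4 letters that are each C or T. The earliest run was in Nap1l1 and Gnb2l1, where it began at the first base, and Pfdn5 had it at base 2 of a transcript starting 275 bases inside the gene. Tpt1, Naca and Btf3 had a run further in, from bases 29, 11 and 15. The 30-base windows that hold the runs are given 5′ to 3′ with the run in capitals:
Nap1l1 (chr10:111473227-111473256, plus strand): CTTTTTTagcgccatctgctcgcggcgccg
Gnb2l1 (chr11:48800360-48800389, plus strand): CTTTTTCTCCacagggtcgtggtggcagcc
Pfdn5 (chr15:102326391-102326420, plus strand): gCTTTCTTgagctgaccccttgttttttcc
Naca (chr10:128035635-128035664, plus strand): ctcgctcgttCTCTTTCTgccgccatcttg
Btf3 (chr13:98316973-98317002, minus strand): cgtcgcgttaCTTCCggcctccctctagct
Tpt1 (chr14:75845320-75845349, plus strand): cccgcgtcggCCTTTTCCgcccgctccccc
No such run was found in the annotated starts of Npm1 (chr11:33152287-33163206, minus strand) and Ybx1 (chr4:119277981-119294604, minus strand). A run at the first base was present in 1121 of 21877 coding genes (5.12%), in 23 of 82 ribosomal protein genes (28%), in 8 of 21 other non-ribosomal TOP genes (38.1%) and in 2 of the 8 members (25%). Anywhere in the first 60 bases it was present in 75.4% of coding genes. These are letters of annotated transcripts, and where transcription starts in RAW264.7 cells was not measured.

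Read depth and cell identity were as follows. Depth was 6230562 to 7933796 reads for input and 11771175 to 23327760 reads for footprints of experiment 1, and 26359243 to 48139330 and 29065324 to 87536081 reads for those of experiment 2. Member genes had 1308 to 171240 input reads and 1925 to 629640 footprint reads per library. Of 11 macrophage marker symbols, with Adgre1 and Emr1 as 2 names of 1 gene, 10 were listed. They summed to 5836 to 8070 normalised CPM, the read count scaled to library size, in input and 10090 to 13870 in footprints. Lyz2 held most of the input sum (3210 to 5359 CPM), while Itgam had 1.71 to 2.71 CPM and Fcgr3 5.69 to 9.50. Markers of other cell types (16 names, 6 listed) summed to 0.272 to 2.30 CPM in input and 1.40 to 4.18 in footprints, with Cd3d and Cd79a at 0 in every input library of experiment 1. S100a8 was the largest of these (0.272 to 1.84 CPM in input). The 60 min footprint library was the shallowest footprint library, and Npm1, Nap1l1, Naca, Btf3 and Ybx1 had their lowest footprint level in it while Gnb2l1 had its highest. Footprint slopes are given with and without its lysate, and the 60 min ratios of single genes rest on it alone.

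Ribosome footprints were compared with input to ask how densely each mRNA was occupied. Both materials were scaled to normalised CPM by TMM, so the log2 footprint to input ratio is relative to the other genes of a library. Gene length cancels only as far as both materials were counted over the same part of the mRNA. The region counted is not given, so differences between genes in the ratio may include the coding part of each mRNA. Of the 8 members 6 were higher in footprints (edgeR quasi-likelihood test, Benjamini-Hochberg adjusted p under 0.05) and 1 was lower. Among all 10110 genes tested, 35.8% were called higher and 40.4% lower, 76.2% in all. The members had a median log2 ratio of 0.73 and all genes -0.04.

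**Figure D1:**
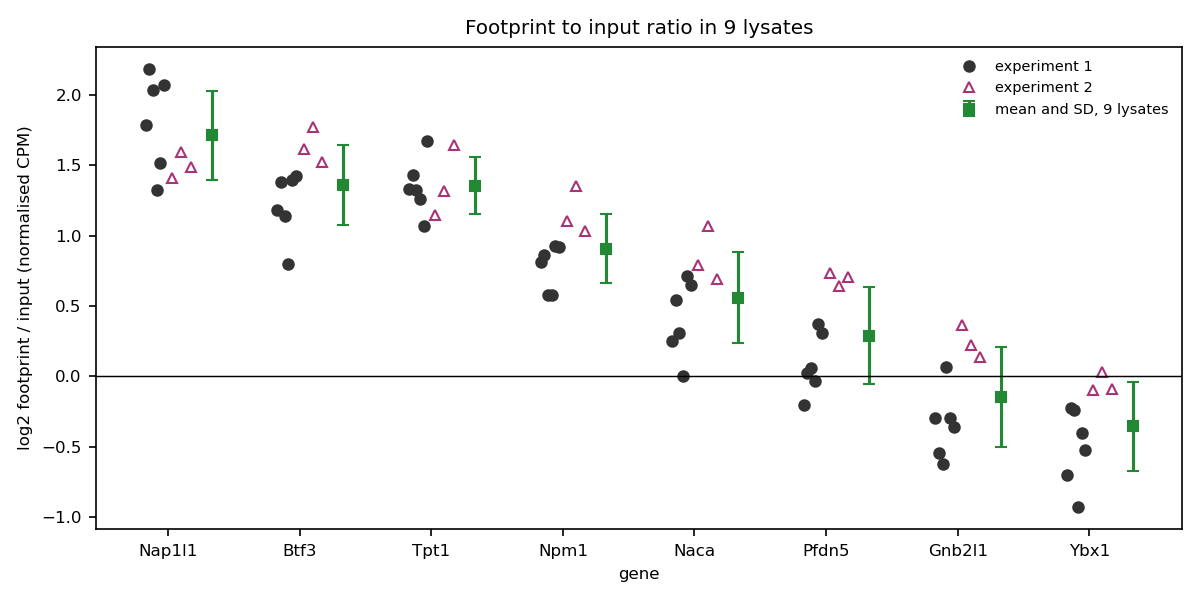
Log2 footprint to input ratio of normalised CPM (vertical axis) for the 8 genes, with 1 point per lysate (filled circles, experiment 1; open triangles, experiment 2) and squares with bars for the mean and SD of 9 lysates. Nap1l1, Btf3 and Tpt1 sit between 0.80 and 2.18 in every lysate, whereas Gnb2l1 and Ybx1 lie around or below 0.

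Among the chromatin and nucleolar proteins, Nap1l1, a histone chaperone that also shuttles histones to the nucleus, had the highest ratio. Its input level was 369 to 686 CPM (median 497) and its footprint level 1196 to 2211 CPM (median 1677). These ranges did not overlap, but how many of all genes parted in this way was not counted. The log2 ratio was 1.79, 2.18, 2.03, 1.32, 1.52 and 2.07 in experiment 1 from 0 to 120 min, and 1.41, 1.59 and 1.49 at 20, 30 and 40 min in experiment 2. It was thus above 1 in 9 of 9 lysates, and the fitted log2 difference was 1.70 (SE 0.11), higher than that of 97.7% of genes tested. Npm1, the nucleolar chaperone nucleophosmin, which takes part in ribosome assembly, had the most reads of the 8. Its input level was 2963 to 4991 CPM and its footprint level 6201 to 9367 CPM, again without overlap. The fitted log2 difference was 0.90 (SE 0.10, edgeR adjusted p = 1e-06), and the per-lysate ratio averaged 0.91 ± 0.25 (SD, n = 9) and was positive in 9 of 9 lysates.

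Naca and Btf3 encode the α and β subunits of the nascent polypeptide-associated complex, which sits at the ribosome exit tunnel. For Btf3 the input level was 439 to 815 CPM (median 599) and the footprint level 1115 to 2189 CPM (median 1501), with no overlap. The log2 ratio of Btf3 was 1.18, 1.38, 1.14, 0.80, 1.40 and 1.43 in experiment 1 and 1.62, 1.77 and 1.52 in experiment 2. Every lysate of experiment 2 lay above every lysate of experiment 1, and the fitted log2 difference was 1.35 (SE 0.10). Naca had 684 to 1243 CPM in input (median 1031) and 1035 to 1955 CPM in footprints (median 1392), and these ranges overlapped. Its log2 ratio was 0.25, 0.55, 0.31, 0.01, 0.71 and 0.65 in experiment 1 and 0.79, 1.07 and 0.69 in experiment 2. The lowest was the 60 min lysate, and the fitted log2 difference was 0.55 (SE 0.11, edgeR adjusted p = 0.000354).

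Tpt1 encodes the translationally controlled tumour protein, a protein named for the control of its mRNA by growth conditions. Its input level was 400 to 755 CPM (median 543) and its footprint level 1229 to 1933 CPM (median 1345), also without overlap. The log2 ratio was 1.33, 1.43, 1.32, 1.26, 1.07 and 1.68 in experiment 1 and 1.14, 1.32 and 1.64 in experiment 2, so both experiments covered the same range. The fitted log2 difference was 1.35 (SE 0.08), and Tpt1 had the smallest SD over lysates of the 8 genes (0.20, n = 9).

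Pfdn5, a subunit of the prefoldin chaperone that passes nascent actin and tubulin to the chaperonin, had the fewest reads of the 8 in both materials. It had 112 to 221 CPM in input (median 179) and 169 to 273 CPM in footprints (median 190). The log2 ratio was -0.20, 0.03, 0.06, -0.03, 0.38 and 0.31 in experiment 1 and 0.73, 0.64 and 0.70 in experiment 2, with the experiments not overlapping. The fitted log2 difference was 0.28 (SE 0.11, edgeR adjusted p = 0.0319), but with experiment 1 alone it was 0.08 (adjusted p = 0.356), and the call was also lost without the 90 min lysate (0.27, adjusted p = 0.0621) or without any one of the 20, 30 and 40 min lysates of experiment 2 (adjusted p = 0.0608 to 0.0822).

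Gnb2l1, now named Rack1, is a scaffold protein of the small ribosomal subunit. It had 1930 to 3889 CPM in input (median 2978) and 2245 to 3114 CPM in footprints (median 2423). Its log2 ratio was -0.30, -0.54, -0.62, 0.06, -0.30 and -0.36 in experiment 1 and 0.36, 0.23 and 0.14 in experiment 2. All 3 lysates of experiment 2 were positive and 5 of 6 of experiment 1 negative, and over both the fitted log2 difference of -0.17 (SE 0.11, edgeR adjusted p = 0.196) did not pass. With experiment 1 alone it was -0.35 (adjusted p = 0.00249). Ybx1, a cold-shock domain protein that packages mRNA, was the only member called lower, at -0.35 (SE 0.09, edgeR adjusted p = 0.00316). It had 1165 to 1823 CPM in input (median 1377) and 836 to 1269 CPM in footprints (median 1169). The ratio was negative in 8 of 9 lysates, from -0.93 at 60 min to 0.03 at 30 min.

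The order of the mean log2 ratios was Nap1l1, Btf3, Tpt1, Npm1, Naca, Pfdn5, Gnb2l1 and Ybx1. Npm1 stood above Naca in 9 of 9 lysates, by 0.35 ± 0.13 (SD). Tpt1 over Npm1, Naca over Pfdn5 and Pfdn5 over Gnb2l1 each kept this order in 8 of 9. Btf3 and Tpt1 did not differ beyond their spread (0.01 ± 0.33), nor did Nap1l1 and Btf3 (0.35 ± 0.43, 6 of 9) or Gnb2l1 and Ybx1 (0.21 ± 0.41, 7 of 9).

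Other genes of the pathway gave the setting. Of 22 other non-ribosomal TOP mRNAs, such as Eif3h (0.83), Eif3f (0.87) and the rRNA methyltransferase gene Fbl (1.40), 15 were higher and 2 lower in footprints, with a median log2 ratio of 0.32. Cytosolic ribosomal protein mRNAs had a median of 0.09, with 31 higher and 11 lower of 79 tested. Genes that regulate TOP mRNA translation were 8 higher, among them Cnbp (1.24), and 9 lower, among them the S6 kinase gene Rps6kb1 (-0.87), of 19. Counts of ribosomal protein genes and of members with near-identical processed copies are uncertain, since no source used here states how reads were assigned. For the members, 3 to 8 pseudogenes matching at least 200 bases at 90% identity were annotated for Npm1 (8), Btf3 (7), Tpt1 (5), Ybx1 (5), Nap1l1 (4) and Naca (3). Pfdn5 had 1 and Gnb2l1 had 0, and Pfdn5 overlaps Myg1 while Gnb2l1 overlaps Trim41 and 3 small nucleolar RNA genes.

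Partner genes were set beside the members where a complex or a paralog pair is known, as the difference in log2 footprint to input ratio within each lysate. The 9 pairs were compared by an exact two-sided sign-flip test, whose smallest possible p with 9 lysates is 0.00391, and 7 passed after adjustment over the 9 pairs. The 2 subunits of the nascent polypeptide-associated complex differed most evenly: Naca was below Btf3 by -0.80 ± 0.07 (SD) in 9 of 9 lysates. Npm1 was above its paralog Npm3 by 1.20 ± 0.24, and Nap1l1 was above Nap1l4 by 1.11 ± 0.28, each in 9 of 9 lysates. Ybx1 was below Ybx3 by -0.34 ± 0.22, Pfdn5 below Pfdn6 by -0.34 ± 0.14 and Pfdn5 below Pfdn2 by -2.28 ± 0.55, each in 9 of 9. These 6 differences had the same exact sign-flip adjusted p of 0.00586.

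Within prefoldin the ratio thus varied between subunits. The mean log2 ratio was 0.29 for Pfdn5, 0.36 for Pfdn1, 0.42 for Pfdn4, 0.48 for Vbp1, 0.63 for Pfdn6 and 2.57 for Pfdn2. Pfdn2 had only 27.0 ± 5.62 CPM (SD, n = 9) in input and as few as 109 reads, against 158 ± 19.7 CPM in footprints. Pfdn5 and Vbp1 differed by -0.19 ± 0.21 (exact sign-flip adjusted p = 0.0452), a call lost in 8 of 9 fits that left out a lysate. Pfdn5 did not differ beyond spread from Pfdn1 (-0.07 ± 0.16) or Pfdn4 (-0.12 ± 0.30).

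**Figure D2:**
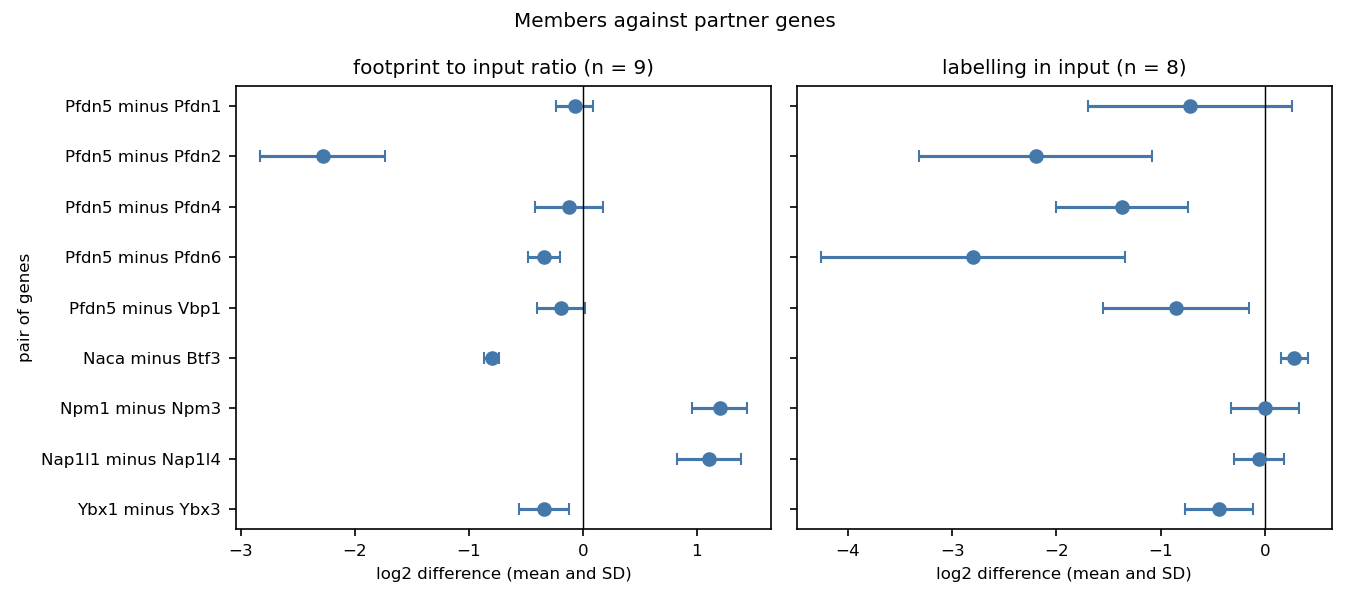
Difference in log2 value between each member and its partner (horizontal axis) for the footprint to input ratio over 9 lysates (left) and for conversions per T position in input over 8 labelled lysates (right), as mean (point) and SD (bar). Naca minus Btf3 has the narrowest bar on the left (-0.80 ± 0.07), and on the right the means of Pfdn5 lie below 0 against all 5 partners.

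Levels over labelling time were examined next. In input all 8 slopes were positive, at 0.15 to 0.30 log2 per hour (median 0.22, all genes -0.02), but 0 of 8 passed the edgeR test, against 6.98% of 9269 genes (0.475% higher, 6.51% lower). Only Btf3, at 0.30 (SE 0.10), had an unadjusted p under 0.05 (0.0140, edgeR adjusted p = 0.0998), as had 2503 of the 9269 genes. Btf3 was called by DESeq2 (0.32, adjusted p = 0.043) and with experiment as a replicate block in edgeR (0.22, adjusted p = 0.0257). That block took the number of genes called from 647 to 1540. The main fit had no term for experiment, and experiment 2 held only early labelling times. Input of Npm1, Naca, Btf3, Pfdn5, Gnb2l1 and Ybx1 lay lower in every lysate of experiment 2 than in any of experiment 1. That offset by itself raises their slopes. In Tpt1 and Nap1l1 the input ranges overlapped. No slope of a member changed sign in the alternative fits, among them experiment as a block and experiment 1 alone. With experiment 1 alone 0 of 8 passed. Single lysates moved the slopes: Ybx1 ran from 0.07 to 0.33 on leaving out each in turn and was called without the 0 min lysate (0.33, edgeR adjusted p = 0.0282). Pfdn5 ran from 0.06 to 0.36 and Nap1l1 from 0.04 to 0.27, without a call.

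In footprints the 8 slopes were again positive (median 0.23 log2 per hour, all genes 0.01), and 2 passed, both higher, against 21.3% of 9664 genes called, 7.13% higher and 14.2% lower. The footprint fit also had no term for experiment. Footprint CPM of Pfdn5 were 169, 189, 199, 171, 233 and 273 from 0 to 120 min in experiment 1 and 190, 175 and 207 in experiment 2, a slope of 0.29 (SE 0.07, edgeR adjusted p = 0.0144). Footprint CPM of Tpt1 were 1229, 1345, 1241, 1299, 1587 and 1933 in experiment 1 and 1374, 1477 and 1246 in experiment 2, a slope of 0.26 (SE 0.07, edgeR adjusted p = 0.0239). In both genes the 90 and 120 min libraries were the highest, and without the 120 min lysate neither passed (0.22 with adjusted p = 0.353, and 0.15 with adjusted p = 0.496). The Tpt1 call was also lost without the 90 min lysate (adjusted p = 0.065) and with no filter on low counts (adjusted p = 0.0606).

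In 5 other members the 60 min library was the lowest of experiment 1. Footprint CPM of Btf3 in experiment 1 were 1359, 1523, 1567, 1115, 1882 and 2189, and those of Nap1l1 were 1579, 1677, 1725, 1196, 1965 and 2211. Without that lysate Npm1 (0.21), Nap1l1 (0.22), Naca (0.32), Btf3 (0.32) and Gnb2l1 (0.17) passed as well, giving 7 of 8 members higher. Over all genes that fit called 1078 of 9699 higher, against 689 of 9664 with all lysates. DESeq2's Wald test on all 9 footprint libraries called 4 members higher, adding Naca (0.28, adjusted p = 0.0405) and Btf3 (0.28, adjusted p = 0.0444). It called 891 of 9664 genes higher. Ribosomal protein mRNAs had 49 higher and 4 lower of 78, with a median slope of 0.27. The footprint to input ratio itself showed no trend that passed: edgeR called 0 of 8 members and 0 of 10110 genes (0%), with 241 genes at an unadjusted p under 0.05, none of them a member, and DESeq2's Wald test called 9 genes and no member. The slopes of the ratio were -0.11 to 0.09 log2 per hour over the members, 4 up and 4 down.

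**Figure D3:**
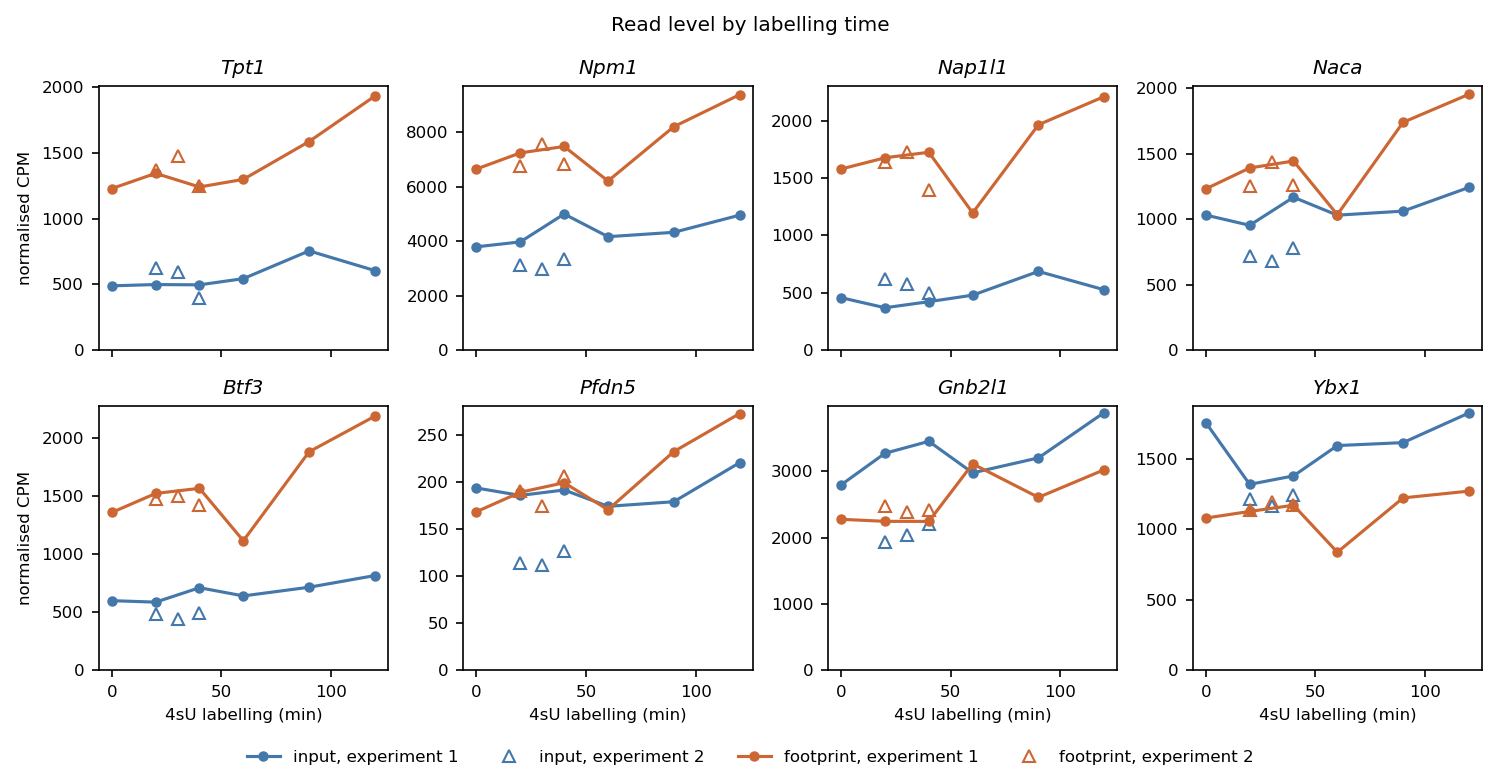
Normalised CPM (vertical axes, each from 0) against labelling time in min for input (blue) and footprints (orange), with lines for the lysates of experiment 1 and open triangles for experiment 2. Footprints of Tpt1 reach 1933 CPM at 120 min, and those of Nap1l1, Naca, Btf3 and Ybx1 are lowest at 60 min.

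The profile over the 18 libraries was used to find the genes most like the members. In 8836 genes that averaged 100 reads or more, those with the highest Pearson correlation to the mean centred log2 profile of the 8 members were Eif1ax (0.990), Arpp19 (0.990), Ndufc1 (0.989), Chmp2a (0.986) and Rpl30 (0.986). The 18 points share lysates, depth and the split into input and footprints. The members' own correlations with this mean, which contains them, ran from -0.283 (Ybx1) and 0.093 (Gnb2l1) to 0.989 (Btf3).

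The experiments were compared at 20 and 40 min, the times both have, by the difference in footprint to input ratio. Of the 8 members 3 passed the edgeR test, against 22.7% of 10308 genes (8.22% higher and 14.5% lower in experiment 2). Gnb2l1 had a mean log2 ratio of -0.58 in experiment 1 and 0.25 in experiment 2 at these times, a fitted difference of 0.75 (SE 0.13, edgeR adjusted p = 0.00558). Pfdn5 had 0.04 and 0.72, a fitted difference of 0.59 (SE 0.11, edgeR adjusted p = 0.0084). Nap1l1 moved the other way, from 2.11 to 1.45, a fitted difference of -0.74 (SE 0.18, edgeR adjusted p = 0.0185). For each of the 3 genes both lysates of one experiment lay on one side of both of the other. That held as well for Npm1, Naca, Btf3 and Ybx1, which were not called, but not for Tpt1. It therefore does not set the 3 genes apart, and its share over all genes was not counted. Each comparison rests on 4 lysates, and the 3 calls were lost without the 20 min lysate (570 genes called) or the 40 min lysate (0 called) of experiment 1, which leaves 1 lysate of experiment 1 assumed to vary like the others. The fitted differences in these 2 fits were 0.81 and 0.70 for Gnb2l1, 0.59 and 0.60 for Pfdn5 and -0.65 and -0.83 for Nap1l1. Ribosomal protein mRNAs were 36 higher and 2 lower of 79 in the same comparison, with a median of 0.44.

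In the underlying levels, the experiments parted in input and overlapped in footprints for Gnb2l1 and Pfdn5, and equally for Npm1, Naca, Btf3 and Ybx1, whose ratios were not called different. In Tpt1 and Nap1l1 the input ranges overlapped. How many of all genes parted in this way was not counted, so it is not shown to be a trait of the members. Nuclear oxidative phosphorylation mRNAs were 18 higher and 1 lower of 36 in the ratio between experiments. Input of Gnb2l1 was 2797 to 3889 CPM in experiment 1 and 1930 to 2199 in experiment 2 without overlap, while its footprints were 2245 to 3114 and 2394 to 2484. Input of Pfdn5 was 174 to 221 CPM in experiment 1 and 112 to 127 in experiment 2, and its footprints were 169 to 273 and 175 to 207. Depth differed between the experiments in the same direction for every input library (at most 7933796 against at least 26359243 reads), and its part in these differences was not tested.

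Newly made RNA was then read from the converted share, the percentage of reads with at least 1 T-to-C conversion. In input of experiment 1 the library's share rose from 0.289% without 4sU to 8.07% at 120 min. The members stayed below that library share throughout labelling. Shares of single libraries carry 95% Wilson intervals, which cover counting error alone, since the deposited columns count reads and not molecules.

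Ybx1 had the smallest input share of the 8 genes from 60 min on. In input it was 15 of 12474 reads without 4sU (interval 0.0729% to 0.198%), then 0.155%, 0.372%, 0.629%, 0.850% and 1.51% (interval 1.30% to 1.76%) from 20 to 120 min in experiment 1, and 0.191%, 0.435% and 0.412% in experiment 2. Pfdn5 from 0 to 120 min was 0% (0 of 1377 reads, which allows up to 0.218%), 0.0731%, 0.149%, 1.28%, 1.99% and 2.80% (interval 2.04% to 3.82%), and 0.288%, 0.338% and 0.439% in experiment 2. The 20 and 40 min values of Pfdn5 in experiment 1 rest on 1 and 2 converted reads. Every other member exceeded both at 120 min: Gnb2l1 reached 3.49%, Npm1 3.66%, Nap1l1 3.86%, Tpt1 4.11%, Btf3 5.16% and Naca 5.30% (interval 4.82% to 5.83%).

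**Figure D4:**
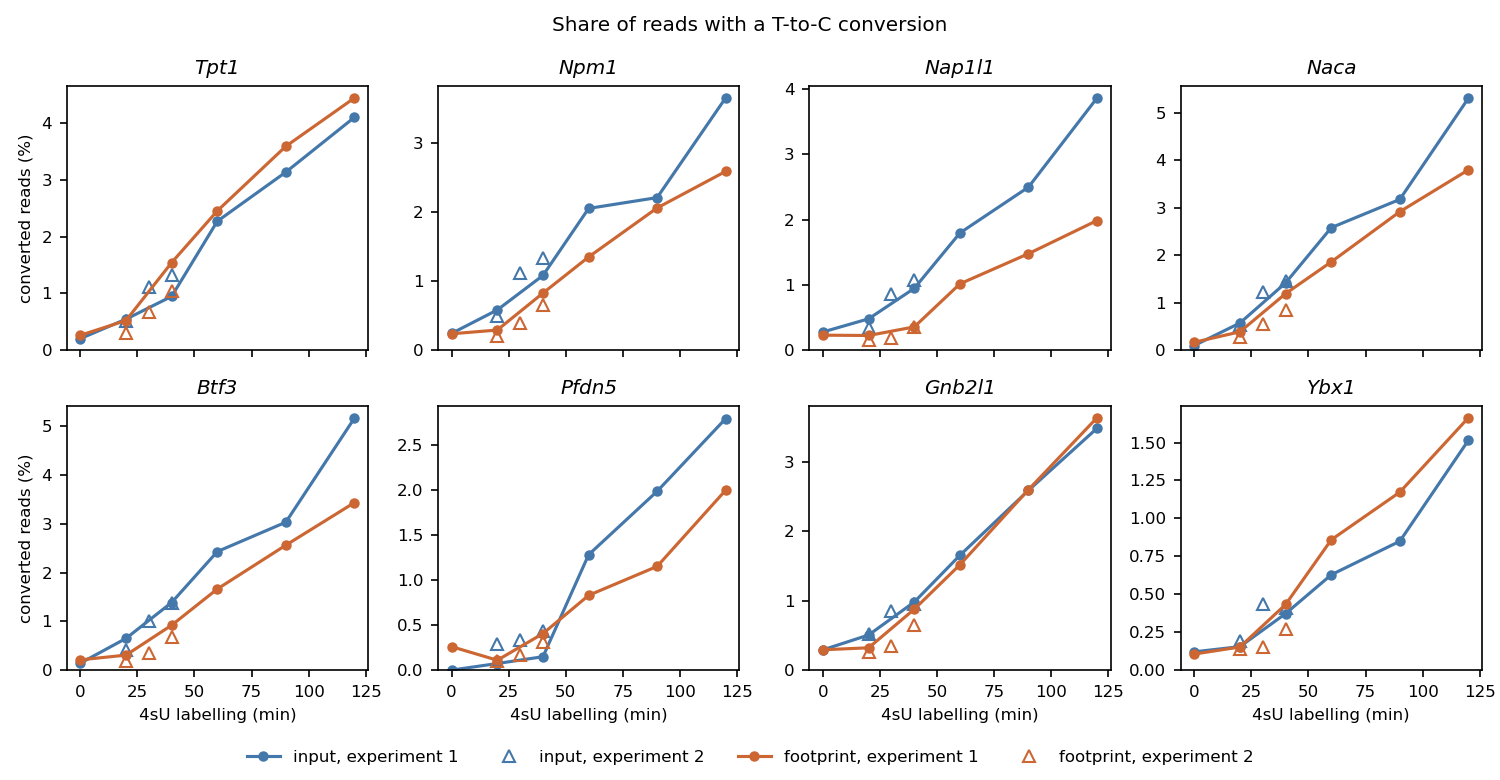
Share of reads with a T-to-C conversion in percent (vertical axes, each gene on its own scale from 0) against labelling time in min, for input (blue) and footprints (orange), with lines for experiment 1 and open triangles for experiment 2. Footprints run below input in Nap1l1 and above it from 40 min on in Tpt1 and Ybx1 of experiment 1.

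Labelling of a gene relative to others was taken as its log2 odds of conversion minus the library's median over genes, so that a value below 0 means fewer converted reads than the middle gene. All 8 members were lower by limma over the 8 labelled input libraries, against 35.2% of 7045 genes called lower and 70.4% called in all. The median over members was -0.86 and over all genes -0.03. Ybx1, at -2.31 (SE 0.19), was above only 0.1% of genes, and Pfdn5, at -2.05 (SE 0.25), above 0.5%. The others were Nap1l1 (-0.97), Gnb2l1 (-0.94), Npm1 (-0.78), Tpt1 (-0.70), Btf3 (-0.60) and Naca (-0.50). Ribosomal protein mRNAs were 65 lower and 0 higher of 74 tested (median -0.83), among them Rpl36 (-1.71), and other non-ribosomal TOP mRNAs 19 lower and 0 higher of 22 (median -0.86), among them Eef1d (-1.43). Nuclear oxidative phosphorylation mRNAs, listed for comparison, were 33 lower of 36, at a median of -1.11. Regulators of TOP translation were 4 higher, among them Mlst8 (2.55), and 3 lower of 16.

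The T content of the reads differed between members and enters these values. Input reads held a mean of 4.69 T positions in Ybx1, 5.27 in Pfdn5, 5.38 in Naca, 5.95 in Btf3 and 6.47 in Tpt1, below the median of 6.52 over 9396 genes, and 6.62 in Npm1, 6.69 in Nap1l1 and 6.91 in Gnb2l1, above it. The 2 genes with the lowest relative labelling had the fewest T positions, but Naca, with the mildest value, had the third fewest. Counted as conversions per T position, 7 of 8 members were still lower, against 2509 of 7045 genes, and Naca was not (-0.14, limma adjusted p = 0.425). In the 120 min input library there were 13.4 conversions per 1000 T positions in Naca, 12.0 in Btf3 and 4.19 in Ybx1.

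Conversions per T position were also compared within the pairs, by an exact sign-flip test over the 8 labelled input libraries whose smallest possible p is 0.00781. After adjustment 6 of 9 pairs passed. Pfdn5 was below Pfdn2 (-2.20 ± 1.12, SD), Pfdn4 (-1.37 ± 0.63) and Pfdn6 (-2.80 ± 1.46) in 8 of 8 libraries, each at an exact sign-flip adjusted p of 0.0176. It was below Vbp1 by -0.85 ± 0.70 (exact sign-flip adjusted p = 0.0352), which was lost in 6 of 8 fits that left out a lysate, and the difference from Pfdn1 (-0.72 ± 0.98) did not pass. Naca was above Btf3 by 0.28 ± 0.13 in 8 of 8 libraries (exact sign-flip adjusted p = 0.0176), though by the odds of converted reads, which do not allow for T content, the difference was 0.09 (adjusted p = 0.251). Ybx1 was below Ybx3 by -0.44 ± 0.33 (exact sign-flip adjusted p = 0.0281), and lost the call in 6 of 8 fits that left out a lysate.

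Subtracting the rate of the unlabelled input, a single library, changed some of these pairs. The difference of Ybx1 from Ybx3 became -0.05 and that of Pfdn5 from Pfdn4 -0.15, neither past the threshold, while Nap1l1 came to lie below Nap1l4 (-0.80, exact sign-flip adjusted p = 0.0176). The unlabelled rate of Nap1l1 rests on 9 converted reads. It was 0.44 per 1000 T positions, close to the 0.668 and 0.521 at 20 min of experiments 1 and 2. For Pfdn5 the unlabelled rate was 0, so nothing was subtracted from it. A set minimum kept the remaining rates above 0. Without subtraction Nap1l1 and Nap1l4 differed by -0.06 ± 0.24 and Npm1 and Npm3 by 0.00 ± 0.33.

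The series was made to ask how ribosomes occupy newly made mRNA, which was read from conversion in footprints against input. Across the 8276 genes tested, 59.4% had lower odds of conversion in footprints and 0.145% higher (59.5% called in all), with a median log2 odds ratio of -0.79. Of the 8 members 6 were lower by edgeR's design for methylation counts, and Tpt1 and Ybx1 were not called. A log2 odds ratio near 0 means that converted reads were as frequent among footprints as in input.

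Nap1l1 had the lowest value. Its converted share at 60, 90 and 120 min was 1.80%, 2.50% and 3.86% in input and 1.02%, 1.48% and 1.99% (interval 1.84% to 2.14%) in footprints. The log2 odds ratio was -1.15, -1.44, -0.84, -0.78 and -0.99 from 20 to 120 min in experiment 1 and -1.08, -2.26 and -1.63 in experiment 2. It was thus negative in 8 of 8 lysates, and the fitted value was -1.26 (SE 0.19). Its footprint share was 0.228% without 4sU, against 0.223% at 20 min of experiment 1. At 20 and 30 min of experiment 2 it was 0.160% and 0.181%. These 3 lysates thus show no conversion in Nap1l1 footprints beyond the unlabelled library, which is of experiment 1. At 20 min of experiment 2 this held as well for Npm1 (0.210% against 0.236% unlabelled), Btf3 (0.183% against 0.210%), Gnb2l1 (0.258% against 0.293%) and Pfdn5 (0.101% against 0.260%). Tpt1, Naca and Ybx1 lay above their unlabelled share there, and the whole footprint library had 0.313% against 0.298%. The log2 odds ratios of Btf3 (-0.84, SE 0.18), Npm1 (-0.81, SE 0.16) and Naca (-0.61, SE 0.18) were also negative in 8 of 8 lysates, close to the median gene.

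In Tpt1 the shares of the 2 materials ran close together. They were 0.545%, 0.948%, 2.27%, 3.14% and 4.11% in input from 20 to 120 min of experiment 1 and 0.521%, 1.54%, 2.46%, 3.60% and 4.45% in footprints, and at 120 min the intervals (3.52% to 4.79% and 4.22% to 4.69%) overlapped. In experiment 2 they were 0.507%, 1.11% and 1.33% in input and 0.309%, 0.668% and 1.04% in footprints. The log2 odds ratio was thus positive in 4 of 5 lysates of experiment 1 and negative in 3 of 3 of experiment 2, with a fitted value of -0.09 (SE 0.18, edgeR adjusted p = 0.643). With experiment 1 alone it was 0.22 (edgeR adjusted p = 0.287).

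Ybx1 showed the same split. Its footprint share was 0.152%, 0.433%, 0.859%, 1.17% and 1.66% from 20 to 120 min in experiment 1, at or above the input share from 40 min on, and 0.139%, 0.153% and 0.271% in experiment 2, below it. The log2 odds ratio was -0.05, 0.20, 0.45, 0.47 and 0.14 in experiment 1 and -0.45, -1.51 and -0.61 in experiment 2, with a fitted value of -0.17 (SE 0.18, edgeR adjusted p = 0.388). With experiment 1 alone it was 0.28 (edgeR adjusted p = 0.176). The median gene was lower in experiment 2 as well, at -1.07 to -1.65 against -0.23 to -0.82 in experiment 1, and no labelling time beyond 40 min was in experiment 2.

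Gnb2l1 and Pfdn5 lay between these. Gnb2l1 had ratios of -0.66, -0.16, -0.13, 0.01 and 0.06 in experiment 1 and -1.02, -1.32 and -0.55 in experiment 2, with a fitted value of -0.47 (SE 0.17, edgeR adjusted p = 0.0115). That call was lost with experiment 1 alone (-0.15, adjusted p = 0.379), by limma paired within lysates (-0.47, adjusted p = 0.104) and without the 30 min lysate (-0.34, adjusted p = 0.0606). Pfdn5, which had the fewest converted reads, ranged from -1.49 to 1.17, and its fitted value of -0.61 (SE 0.27, edgeR adjusted p = 0.0379) was lost with experiment 1 alone, by limma and in 6 of 8 fits that left out a lysate. Without both 20 min lysates, an alternative chosen after seeing the data, 4 of 8 members were called lower, as were 3850 of 8081 genes.

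**Figure D5:**
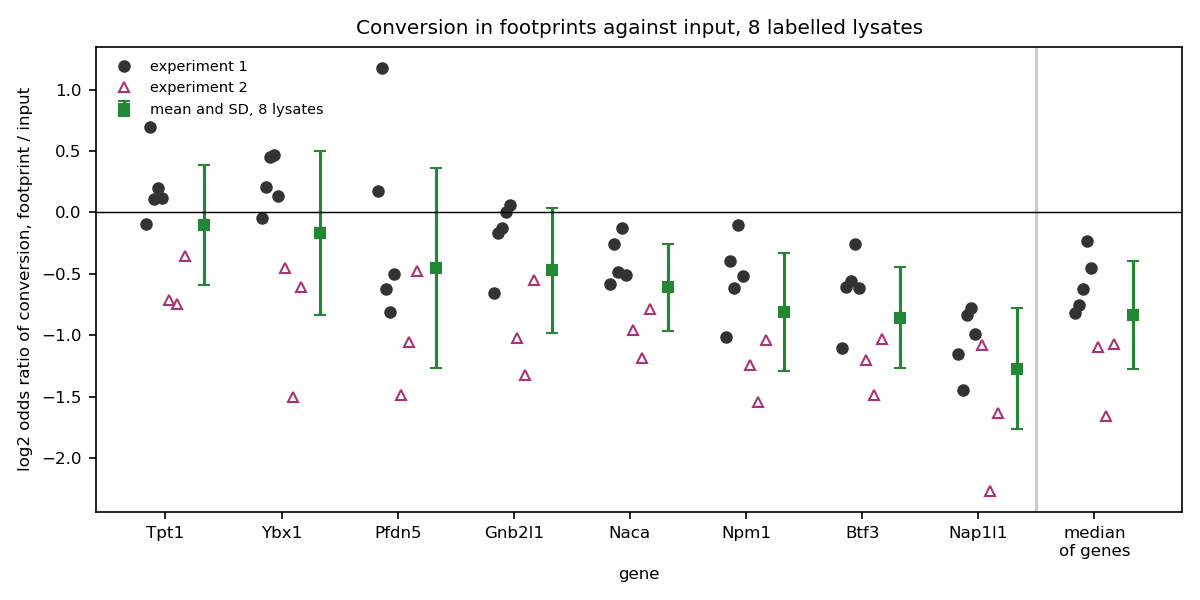
Log2 odds ratio of conversion, footprint over input (vertical axis), per labelled lysate for each gene and for the median of all genes tested, with filled circles for experiment 1, open triangles for experiment 2 and squares with bars for the mean and SD of 8 lysates. Tpt1 and Ybx1 lie mostly above 0 in experiment 1 and below 0 in experiment 2, and Nap1l1 lies at -0.78 or lower in every lysate.

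To remove what all genes share, the lysate median was subtracted from each gene's log2 odds ratio. Of the 8 members 0 passed limma's test, against 1.04% of 8276 genes (0.483% higher, 0.556% lower). An unadjusted p under 0.05 was found for 1551 of the 8276 genes and for 4 members. These were Tpt1 at 0.74 (SE 0.17, limma adjusted p = 0.0645), Ybx1 at 0.67 (SE 0.16, limma adjusted p = 0.0714), Nap1l1 at -0.44 (SE 0.15, limma adjusted p = 0.17) and Gnb2l1 at 0.36 (SE 0.15, limma adjusted p = 0.221). Tpt1 was higher than 95.6% of genes and Ybx1 than 94.2%. With a pseudocount of 2 in place of 0.5 both were called (0.69, adjusted p = 0.0221, and 0.63, adjusted p = 0.0288), in a setting that raised the number of genes called from 86 to 852.

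Shares were also compared at the late times after subtraction of the unlabelled library of the same material. The footprint share divided by the input share at 60, 90 and 120 min was 1.06, 1.14 and 1.07 for Tpt1, and 1.48, 1.46 and 1.12 for Ybx1. It was 0.519, 0.563 and 0.490 for Nap1l1. For whole libraries it was 0.589, 0.754 and 0.674. Tpt1, Ybx1, Gnb2l1, Npm1 and Naca thus lay above the library at each of these times, and Nap1l1 and Pfdn5 below it. Btf3 lay above it at 60 and 90 min and below it at 120 min. Gnb2l1 was at 0.900, 1.00 and 1.05, Npm1 at 0.615, 0.927 and 0.690, Naca at 0.682, 0.894 and 0.697, Btf3 at 0.635, 0.813 and 0.642, and Pfdn5 at 0.445, 0.449 and 0.622. Each of these times has 1 lysate, of experiment 1, and no test was made of the divided shares.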

How the data were processed

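The authors' deposited files hold raw counts of reads per gene, and their columns cross T positions in a read with T-to-C conversions, a meaning inferred from the headings. The submitters' processing notes name Bowtie 0.12.8 and mm10. Which program, annotation, strand setting and gene region were used for counting was not given in the sources used here. By the labels' protocols, input was set aside from each lysate before RNase I digestion, which pairs input with footprints. With the mean of each material removed, the correlation of paired libraries ran from 0.116 to 0.723, and in 4 of 9 lysates the partner was the best match. Depth was 6230562 to 87536081 reads per library.

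Counts summed over columns were fitted with edgeR 4.0.16 (R 4.3.3; quasi-likelihood, TMM, filter on low counts), with labelling time as a factor for footprint against input and as hours for slopes. Conversion was fitted with edgeR's methylation design or limma 3.58.1, on genes averaging 50 or more reads a library with 50 or more converted reads in total, and log odds used a pseudocount of 0.5. Adjusted p under 0.05 (Benjamini-Hochberg over all genes tested, two-sided) was the call. Normalised CPM were computed from the counts. Pairs of genes were compared by exact sign-flip tests. The fits were tested on simulated data with log2 changes of 1. Recovery was 26% for the ratio between experiments, 60% for relative conversion in footprints and 90.5% to 100% in the other fits. A missing call in the first 2 is thus weak evidence of no change. Recovery of log2 values smaller than 1 was not tested in any fit. The members' slopes were smaller, at 0.15 to 0.30 log2 per hour in input and -0.11 to 0.09 for the ratio. A missing call of a slope is therefore weak evidence of no change as well. Alternatives were DESeq2 1.42.0 size factors and Wald test, no filter, lysate or experiment as a block, experiment 1 alone, other read minimums, pseudocounts and units, and leaving out each lysate.

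The 8 members are all named. Of other lists only counts, medians and up to 3 genes with the smallest adjusted p per comparison are named, together with every partner gene and the 5 genes most like the members. The members and lists were chosen with earlier results of these data known. Gnb2l1 was matched to the annotation as Rack1. Btf3l4, a further partner considered, was not listed, and the spike-in was not used here.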

Additional observations from a re-analysis of the deposited data

Results flagged for a closer look

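The footprint to input ratio of 3 of the 8 genes differed between the experiments by the edgeR test of that difference at 20 and 40 min: Nap1l1 by -0.74, Pfdn5 by 0.59 and Gnb2l1 by 0.75 (log2, experiment 2 minus experiment 1). The design has 2 lysates per experiment at these times. The same fit called 22.7% of 10308 genes. In 16 groups of lysates checked for a single value far from the others, none was found.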

How the results depend on the processing

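The 6 higher and 1 lower calls of the footprint to input ratio held under other size factors, no filter, DESeq2's Wald test and both blocks. With experiment 1 alone they became 5 higher and 2 lower, against 3483 higher and 4057 lower of 9774 genes. All 8 members stayed lower in relative labelling under every alternative but conversions per T position, which lost Naca. The number of genes called moved in several comparisons. For input slopes 647 became 1309 by the Wald test and 1540 with experiment as a replicate block. For the ratio over time 0 became 9 by the Wald test, 1 with lysate as a replicate block and 3 with experiment 1 alone. Conversion calls fell from 4925 to 2021 with experiment 1 alone, and relative conversion calls from 86 to 0 there, 56 per T position and 852 with a pseudocount of 2. Beyond Btf3 in input, neither block changed a call of a member. Leaving out each lysate gave 0 to 838 genes for input slopes, 67 to 2602 for footprint slopes, 0 to 6 for the ratio over time, 0 to 2833 between experiments and 3 to 87 for relative conversion. The input slopes had 0 calls without the 120 min lysate and 35 without that of 90 min. The cause was not tested.

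Values near 0 changed sign. For the ratio over time with experiment 1 alone Npm1 was 0.07, Nap1l1 -0.07, Btf3 0.10 and Gnb2l1 0.07, and leaving out lysates gave Tpt1 -0.15 to 0.18, Npm1 -0.11 to 0.01, Nap1l1 -0.23 to 0.13, Naca -0.04 to 0.11, Btf3 -0.11 to 0.02 and Pfdn5 -0.07 to 0.16. The footprint slope of Ybx1 was -0.01 to 0.08 and the between-experiment value of Tpt1 -0.32 to 0.18. Conversion with experiment 1 alone was 0.22 for Tpt1 and 0.28 for Ybx1, and -0.20 to 0.01 and -0.27 to 0.03 on leaving out lysates. In relative conversion Npm1 was -0.02 per T position and -0.02 to 0.06 on leaving out lysates, and Btf3 was 0.03 per T position, 0.06 with no replicate block, 0.04 without both 20 min lysates and -0.05 to 0.02 on leaving out lysates. Labelling of Npm1 against Npm3 was 0.00 by odds, 0.11 after subtraction and -0.05 to 0.06 on leaving out lysates.

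Every labelling time but 20 and 40 min has 1 lysate, experiment 2 ends at 40 min and the unlabelled control is a single lysate. Early converted shares rest on few reads, down to 1 in Pfdn5.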
